A study of Mus musculus with 8 samples.

Results

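MHC class II genes and Siglech, a gene of plasmacytoid dendritic cells, were followed through 8 RNA libraries of cultured mouse bone marrow progenitors. The members were the rows whose symbol equals Ciita, Cd74, H2-Aa, H2-Ab1, H2-Eb1, H2-DMa, H2-DMb1 or Siglech, and all 8 were found among 27710 listed genes. The cells were lineage-depleted bone marrow, which is marrow freed of mature blood cells, grown with 10% fetal bovine serum and cytokines that included SCF and Flt3L at 50 ng/mL each and IL3 at 10 ng/mL. WT cells and cells carrying floxed Alkbh5 alleles with the Vav-iCre recombinase (Vav-iCre+; Alkbh5fl/fl, here vcAlkbh5) gave 4 libraries each. Per genotype, 3 libraries are from cells given 100 µM 4-thiouridine (s4U) for 2 h (fed), and 1 library (unlabelled) is recorded with no agent. The Vav promoter drives the recombinase in blood cells of all lineages, so dendritic and B lineage cells of the culture carry the deletion as well, and the labels used here give no age, sex or strain. All RNA, also that of the unlabelled libraries by the protocol, went through TimeLapse chemistry, which converts s4U in RNA so that sequencing can detect it.

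MHC class II molecules are pairs of an alpha and a beta chain that show peptides from endosomes to CD4 T cells. CIITA is the transactivator that turns these genes on, the invariant chain CD74 guides newly made pairs to endosomes and blocks their groove, and the H2-DM dimer exchanges the remnant of that chain for a peptide. Dendritic cells, B cells and macrophages are the usual carriers in bone marrow, Flt3 ligand is a growth factor of dendritic cells, and Siglec-H is a surface receptor used as a marker of plasmacytoid dendritic cells.

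Of the members, 5 lie within 197.1 kb of chromosome 17 (GRCm38, GENCODE M21). In that order along the chromosome they are H2-DMa (34119541 to 34139101, plus strand), H2-DMb1 (34153072 to 34160230, plus), H2-Ab1 (34257689 to 34269419, plus), H2-Aa (34282744 to 34287823, minus) and H2-Eb1 (34305867 to 34316674, plus). Ciita is on chromosome 16 (10480059 to 10528418, plus) and Siglech on chromosome 7 (55768178 to 55778925, plus). All of these are protein-coding. Exons of H2-DMa overlap exons of Brd2, and exons of Ciita those of Dexi, on the opposite strand in each case, and the sources used here do not give the strand setting of the counting. None of the entries for reads in several genes named a member (0 entries).

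The promoters of class II genes are known for a shared module of an X box and a Y box, and the available entries were searched for its cores. RefSeq (GRCm38.p6) gave promoter entries for 5 members, H2-Aa, H2-Eb1, H2-DMa, H2-DMb1 and Siglech. The 250 bases before each start were searched on both strands for the X box core AGNAAC followed by the Y box core ATTGG, the second starting 15 to 40 bases after the first. The stretches of H2-Aa and H2-Eb1 are 80 bases around the Y box core, that of H2-DMb1 is 20 bases at the X box core, and capitals mark the cores found.
H2-Aa, chr17:34287847-34287926, minus strand: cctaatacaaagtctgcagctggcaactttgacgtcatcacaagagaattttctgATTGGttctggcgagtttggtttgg
H2-Eb1, chr17:34305753-34305832, plus strand: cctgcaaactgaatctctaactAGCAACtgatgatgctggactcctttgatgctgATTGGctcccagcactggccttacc
H2-DMb1, chr17:34153094-34153113, plus strand: ctAGTAACtgatgatgctag
H2-Eb1 held the pair with the cores 92 and 59 bases before its start, and H2-DMb1 held it 95 and 61 bases before the RefSeq start. GENCODE M21 puts the start of H2-DMb1 119 bases further upstream, so by that annotation these cores lie 24 and 58 bases inside the transcript, in its 5′ UTR. The 20 bases at the X box core were identical between these genes at 18 positions. H2-Aa had the Y box core 48 bases before its start and no exact match to the X box letters used. Its printed stretch holds ggcaac before the Y box core, which differs from AGNAAC only at the first base. Near matches were not searched for. Neither entry of H2-DMa (2 starts) and not that of Siglech held the pair. Of the 3 coding transcripts of H2-DMa in GENCODE M21, 2 start at least 10110 bases downstream of both entry starts, and the stretches before them were not searched. The pair occurred in 1.18% of 32851 promoter entries, the X box core alone in 42.3% and the Y box core alone in 33.8%, so the single cores carry little information.

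Gene counts per library ranged from 5723245 to 8615997, and the members had between 25 and 1821 counts in a library. Alkbh5 had 1166, 1479 and 1061 counts in the fed WT libraries and 0, 1 and 1 in the fed vcAlkbh5 libraries, and 1263 against 1 in the unlabelled pair, in accord with the genotype labels. Progenitor genes were present in every library, with Kit between 70.2 and 96.8 CPM (gene counts brought to a common library size with TMM over the 8 libraries), Cd34 between 47.4 and 88.8 CPM and Mpo between 3005 and 8100 CPM. Fed replicate 1 of both genotypes stood apart from the other libraries: reads in no gene made up 38.3% and 37.6% of its counts, against 48.9% to 52.1% elsewhere. In fed WT replicate 3 the ribosomal-repeat gene Gm26917 took 14.2% of gene counts. Xist RNA was high and Ddx3y at 0 in fed replicate 2 of both genotypes, the reverse held in replicates 1 and 3, and both unlabelled libraries had RNA of both sexes. The labels do not say whether replicates are separate animals or cultures. Xist and Ddx3y place fed replicate 2 in cells of another sex than fed replicates 1 and 3. The p-values cover only the spread among these libraries, which mixes that difference with spread that may be technical. In bulk RNA, fewer cells of a type and less RNA per cell cannot be told apart.

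Cd74 was by far the most abundant member and Ciita the least, when CPM was divided by the length of all annotated exons. Cd74, a protein-coding gene on chromosome 18 (60803848 to 60812652, plus strand), stood at 123 CPM per kb as the mean over 8 libraries (range 104 to 170), higher than 97.6% of 13224 tested genes with an annotated length. The beta chain gene H2-Ab1 followed at 24.1 CPM per kb (18.4 to 36.9) and the other beta chain gene, H2-Eb1, at 14.1 (8.06 to 29.8), with overlapping ranges. H2-DMa (8.68), H2-DMb1 (8.21) and the alpha chain gene H2-Aa (6.99 CPM per kb) came next. The ranges of these 3 and of H2-Eb1 overlapped. Within every library, however, H2-Ab1 lay above H2-Eb1 and H2-Eb1 above H2-Aa per kb. The places of H2-DMa and H2-DMb1 relative to H2-Eb1, to H2-Aa and to each other changed between libraries, so these are not resolved. Siglech averaged 3.31 CPM per kb (1.43 to 4.64), and Ciita 0.505 CPM per kb (0.386 to 0.695), which was higher than 4.46% of the tested genes. Both lay below every other member in all libraries, and Ciita below Siglech. The order of the means was the same with the length of the longest annotated transcript.

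**Figure D1:**
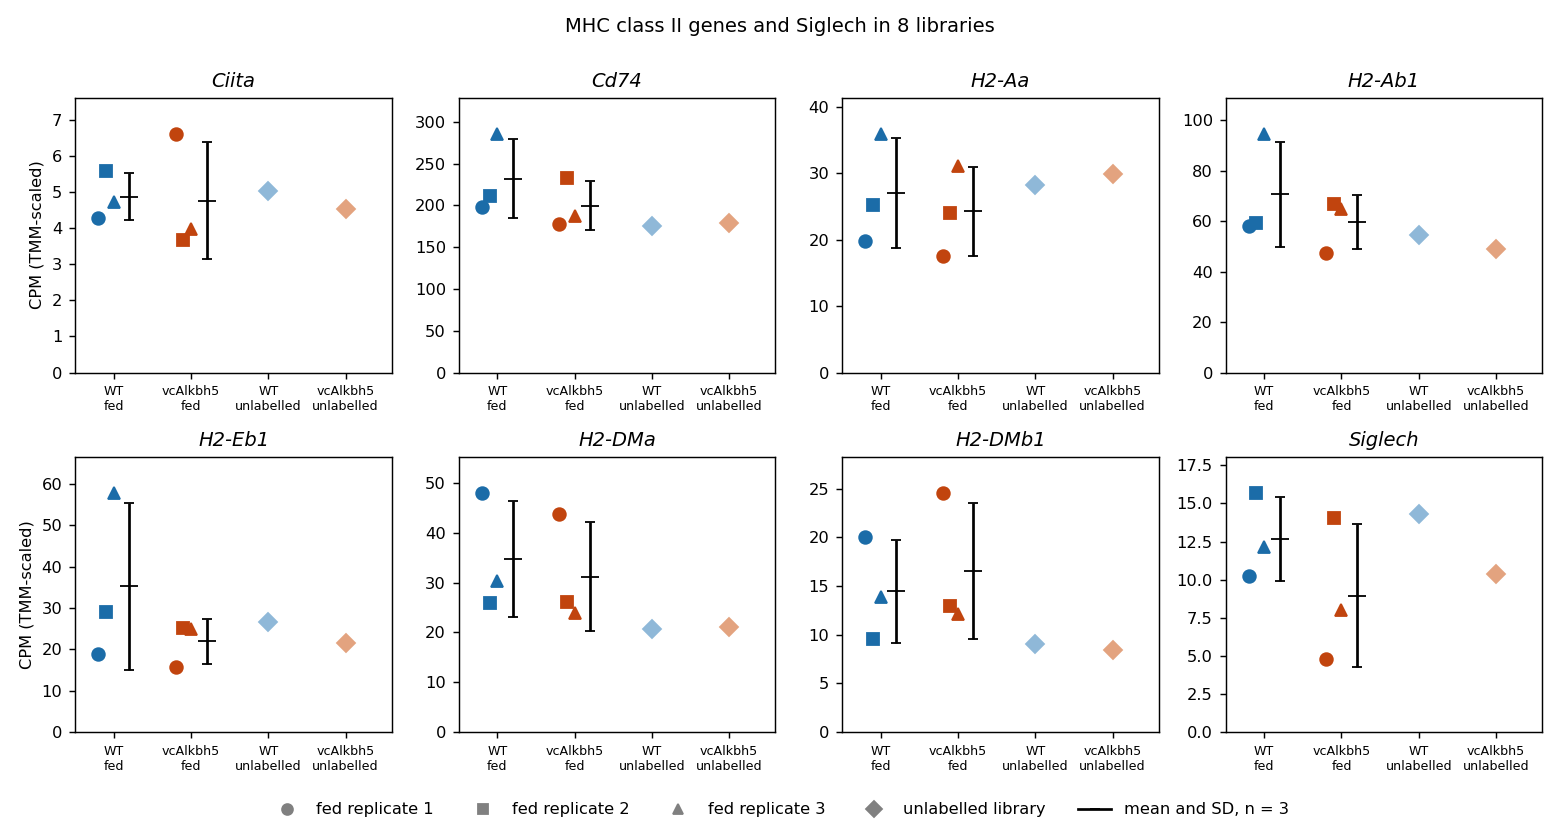
Each panel plots the TMM-scaled CPM of 1 gene on the y axis, from 0, for each library, with the groups on the x axis, symbols for the replicate number and bars for the mean and SD of 3 fed libraries. The WT and vcAlkbh5 fed groups overlap in every panel, and fed replicate 1 is highest in its group for H2-DMa and H2-DMb1 and lowest for H2-Aa, H2-Ab1 and H2-Eb1.

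The genotype comparison asked whether loss of Alkbh5, the RNA demethylase that removes N6-methyladenosine, goes with other levels of these transcripts. No member passed the threshold between fed libraries, and the fed groups overlapped for all 8. Ciita had 4.30, 5.58 and 4.74 CPM in WT replicates 1 to 3 and 6.63, 3.68 and 3.99 CPM in vcAlkbh5 replicates 1 to 3. The highest and the lowest library were both vcAlkbh5, and with 25 to 48 counts per library the gene was the least precisely counted member. Its log2 fold change (vcAlkbh5 over WT) was -0.06 ± 0.34 (SE), and the 95% interval of the ratio reached from 0.563 to 1.64.

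Cd74 had 199, 212 and 286 CPM in the WT libraries and 178, 233 and 187 CPM in the vcAlkbh5 libraries. WT replicate 3 was the highest and the other libraries lay close together. The log2 fold change was -0.23 ± 0.20 (SE), with a ratio interval of 0.621 to 1.16. Among the members this gene had the narrowest interval, and ratios under 0.621 lie outside it.

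The classical chains showed the same overlap. H2-Aa, for the alpha chain of I-A, had 19.8, 25.3 and 36.0 CPM in WT and 17.6, 24.0 and 31.2 CPM in vcAlkbh5 libraries. In both genotypes replicate 1 was lowest and replicate 3 highest. Its log2 fold change was -0.16 ± 0.29 (SE). H2-Ab1, for the beta chain of I-A, had 58.0, 59.5 and 94.8 against 47.3, 66.8 and 65.0 CPM. Here WT replicate 3 alone stood above the others, and the log2 fold change was -0.26 ± 0.24 (SE). H2-Eb1, for the beta chain of I-E, had 19.0, 29.0 and 57.8 against 15.7, 25.2 and 25.1 CPM. Its WT mean of 35.3 ± 20.2 CPM (SD, n = 3) rested on replicate 3, which had 57.8 CPM, and the vcAlkbh5 mean was 22.0 ± 5.47 CPM (SD, n = 3). The log2 fold change of H2-Eb1 was the most negative of the members, at -0.69 ± 0.40 (SE, edgeR unadjusted p = 0.123, adjusted p = 1.00). Without WT fed replicate 3, the library with the high share of Gm26917, it was -0.13 (edgeR adjusted p = 1.00), and the part of that share in the value was not tested. Without WT fed replicate 1 it was -0.99 (edgeR unadjusted p = 0.0180, adjusted p = 0.957), and without each of the other 4 libraries it lay between -0.82 and -0.49.

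In contrast to the classical chains, the peptide exchange genes were highest in replicate 1 of each genotype. H2-DMa, for the alpha chain of H2-DM, had 47.9, 25.9 and 30.3 CPM in WT and 43.7, 26.1 and 23.8 CPM in vcAlkbh5 libraries. Replicate 1 was the highest in both genotypes, and the log2 fold change was -0.18 ± 0.31 (SE). H2-DMb1, for a beta chain of H2-DM, had 20.0, 9.53 and 13.8 against 24.6, 12.96 and 12.1 CPM. It was the only member with a positive log2 fold change in this fit, at 0.18 ± 0.36 (SE), and the value fell to -0.21 without vcAlkbh5 replicate 1. Siglech had 10.3, 15.7 and 12.1 CPM in WT and 4.82, 14.1 and 7.98 CPM in vcAlkbh5 libraries. The lowest library was vcAlkbh5 replicate 1 with 32 counts, and the log2 fold change was -0.52 ± 0.39 (SE), with a ratio interval of 0.378 to 1.30. It was -0.22 without vcAlkbh5 replicate 1 and -1.0 without vcAlkbh5 replicate 2 (edgeR unadjusted p = 0.0257, adjusted p = 0.997).

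In all, 7 of 8 members had a negative log2 fold change, with a median of -0.20, beside 49.8% negative and a median of 0.00 over the 13342 genes tested. The tally depended in part on WT fed replicate 3. Without that library H2-Aa was at 0.11, H2-Ab1 at 0.03 and H2-DMb1 at 0.17. Cd74 was then at -0.04, Ciita at -0.06, H2-Eb1 at -0.13, H2-DMa at -0.24 and Siglech at -0.53. With edgeR 0 members had an adjusted p under 0.05, and 0 members an unadjusted p under 0.05, where Alkbh5 was the 1 called gene (0.0075% called) and 151 genes had an unadjusted p under 0.05 (1.13%). DESeq2 called 0 members as well (0.015% called). With the replicate number as a block, 353 genes (2.65%) had an unadjusted p under 0.05, and among the members H2-Eb1 did. Its log2 fold change was then -0.59 ± 0.23 (SE, edgeR unadjusted p = 0.0368, adjusted p = 0.939), with a ratio interval of 0.456 to 0.968. The share of tested genes whose fed groups did not overlap was 2.92% lower and 2.67% higher in vcAlkbh5 libraries, and 0 members were among them. The intervals of Siglech and H2-Eb1 still hold ratios of 0.378 and 0.328 to WT, so changes of that size are not excluded. In simulated data with a 2-fold change at this size, 8 of 50 lower and 7 of 50 higher genes were recovered, and 43 and 48 of 50 with a 4-fold change. The same simulated data gave 8 false calls and held no difference shared by same-numbered libraries. The changed genes were drawn above a mean level that Ciita did not reach.

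**Figure D2:**
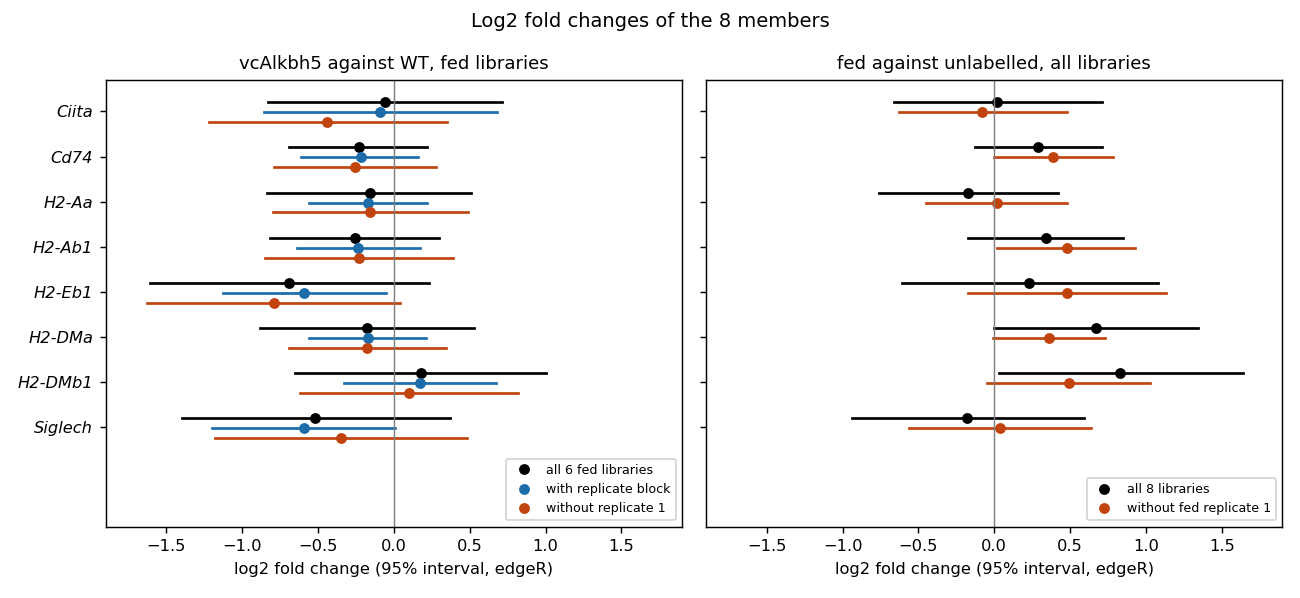
The x axis is the log2 fold change with its 95% interval from edgeR for each member (y axis), between genotypes in the fed libraries on the left and between fed and unlabelled libraries on the right, with colours for fits over all libraries, with the replicate number as a block, and without fed replicate 1. The median of the members was -0.20 on the left and 0.26 on the right, and no member had an adjusted p under 0.05 in any of these fits.

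The unlabelled pair, 1 library per genotype with no replicate check, gave ratios near 1 for most members. The vcAlkbh5 to WT ratio was 1.02 for Cd74 (exact 95% counting interval 0.951 to 1.10), 1.06 for H2-Aa (0.884 to 1.27), 0.898 for H2-Ab1 (0.784 to 1.03) and 1.02 for H2-DMa (0.821 to 1.26). It was 0.931 for H2-DMb1 (0.664 to 1.31) and 0.901 for Ciita (0.567 to 1.43). Siglech had 94 against 111 counts, a ratio of 0.726 (0.546 to 0.964), and H2-Eb1 194 against 206 counts, a ratio of 0.807 (0.660 to 0.987). These were the 2 members whose counting interval lay below 1, as it did for 5.32% of 14988 genes (above 1 for 11.2%). The intervals cover counting error only, and this pair differed beyond sampling noise across genes. The genotype by s4U interaction was called for 0 members and 0 of 14988 genes (0.0% called, 24 with an unadjusted p under 0.05 by edgeR, and 0 called by DESeq2). The members' interaction terms ran from -0.35 to 0.31, with a smallest unadjusted p of 0.568.

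The members did not vary as a single group across the libraries. H2-DMa and H2-DMb1 were higher in fed replicate 1 of both genotypes than in each of the other 4 fed libraries, and H2-Aa, H2-Ab1 and H2-Eb1 were lower there than in each of those. The ratio of replicate 1 to the mean of replicates 2 and 3 was 1.70 in WT and 1.75 in vcAlkbh5 for H2-DMa, and 1.71 and 1.96 for H2-DMb1. It was 0.647 and 0.639 for H2-Aa, 0.752 and 0.718 for H2-Ab1, and 0.438 and 0.623 for H2-Eb1. Cd74 moved less, at 0.798 and 0.850. Siglech was at 0.737 and 0.438, while for Ciita the ratios lay on either side of 1, at 0.833 and 1.73. Brd2, whose exons overlap those of H2-DMa, was at 1.05 and 1.19. This is a description of libraries singled out after their values were seen. Over all tested genes the replicate 1 pair was above the other 4 fed libraries for 22.7% and below them for 18.8%, together 41.5%, and the 5 of 8 members are to be read against that share.

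Within a library, counts of H2-DMa and H2-Aa need no scaling between libraries to be compared. There were 2.42 H2-DMa counts per H2-Aa count in fed WT replicate 1 (exact 95% counting interval 1.95 to 3.02) and 2.48 in fed vcAlkbh5 replicate 1 (1.99 to 3.10). The other 4 fed libraries had 1.02, 0.842, 1.09 and 0.764, and the unlabelled pair 0.731 and 0.701, all with intervals below those of replicate 1. The ratio of Cd74 to H2-Ab1 counts was far steadier, from 2.88 to 3.77 over the 8 libraries. As a measure of likeness, the root mean square difference of centred log2 CPM over the 8 libraries was 0.13 between Cd74 and H2-Ab1 and 0.18 between H2-DMa and H2-DMb1, the closest pairs. It was 0.84 between H2-DMb1 and H2-Eb1 and 0.93 between H2-DMb1 and Siglech, the most distant pairs. H2-DMb1 and H2-Eb1 are the genes whose RefSeq promoter entries held the X and Y cores, although in GENCODE M21 those of H2-DMb1 lie inside its transcript. A relation of promoter letters to these distances was not tested, and Cd74, H2-Ab1 and Ciita had no promoter entry.

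**Figure D3:**
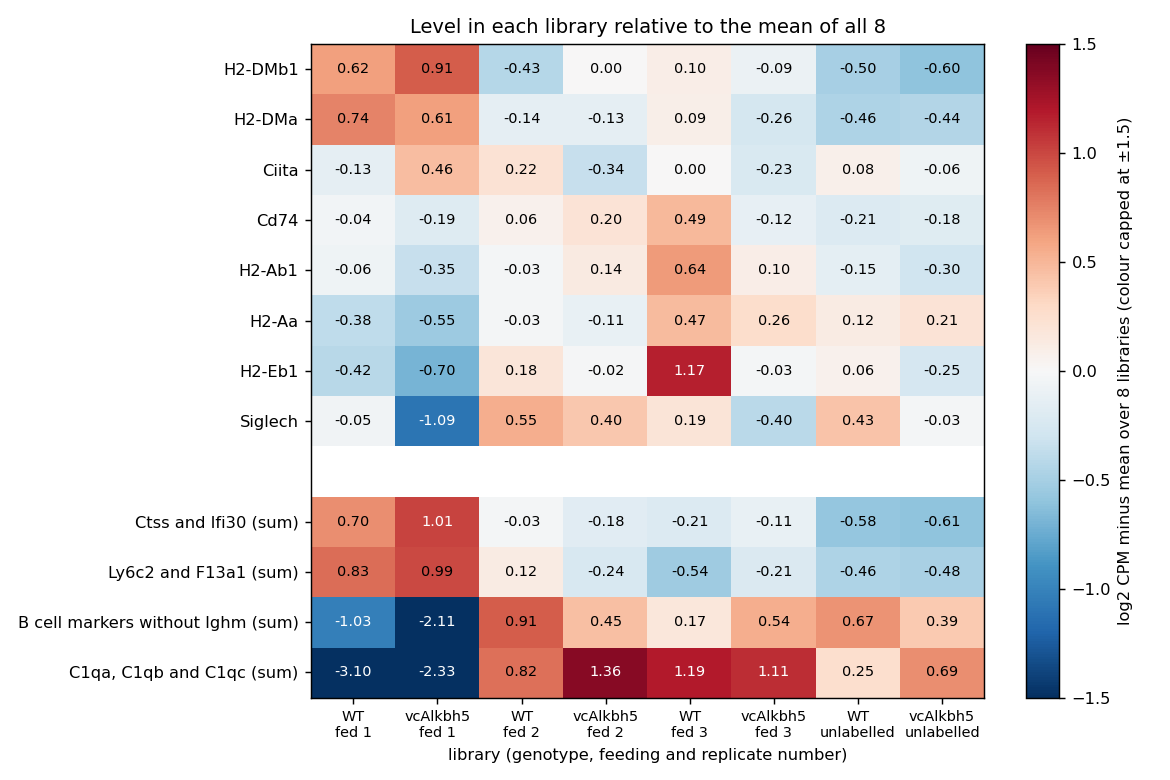
Colours and numbers give log2 CPM minus the mean over 8 libraries for each member (upper rows) and for summed gene groups (lower rows), with the libraries on the x axis ordered by replicate number. In fed replicate 1 of both genotypes H2-DMa, H2-DMb1, Ctss with Ifi30 and Ly6c2 with F13a1 are above the mean, and H2-Aa, H2-Eb1, the B cell markers without Ighm and the C1q genes are below it.

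Some markers of the cell types that carry class II molecules moved with these libraries, in both directions. The 13 B cell markers other than Ighm, such as Pax5 and Ebf1, summed to 94.2 and 44.5 CPM in fed replicate 1 of WT and vcAlkbh5, against 217 to 362 CPM in the other 4 fed libraries. C1qa, C1qb and C1qc, complement genes of tissue macrophages, summed to 7.60 and 12.96 CPM against 115 to 168 CPM. Monocyte genes went the other way, with Ly6c2 and F13a1 at 1439 and 1604 CPM against 556 to 878 CPM. So did Ctss and Ifi30, the genes of cathepsin S and of the thiol reductase GILT, which prepare class II peptides, at 614 and 761 CPM against 327 to 370 CPM. The whole list of 9 peptide loading and turnover genes summed to 1387 and 1610 CPM against 918.6 to 1082 CPM, but not all of it moved this way. March8, for a ligase that removes class II molecules, had 24.8 and 20.2 CPM against 29.4 to 36.8 CPM, and Lgmn 24.1 and 41.7 CPM against 37.9 to 43.8 CPM. These groups and genes were chosen after their values were seen, and their part in the members' levels was not tested. The whole lists moved less. All 14 B cell markers, of which Ighm made up most, summed to 881 to 1078 CPM in fed WT and 721 to 1471 CPM in fed vcAlkbh5 libraries. The 15 monocyte and macrophage markers summed to 1179 to 2300 and 1497 to 2788 CPM. Of the 16 further plasmacytoid markers, summing to 264 to 313 CPM in WT and 246 to 281 CPM in vcAlkbh5 libraries, Klk1, Klra17 and Cd300c were at 0 in 1 or 2 libraries. Of the 15 conventional dendritic cell markers, at 473 to 558 and 418 to 591 CPM, Xcr1 was at 0 in 3 libraries and had at most 4 counts. Their sum was higher in fed replicate 1 of WT and vcAlkbh5, at 557.6 and 590.6 CPM against 417.7 to 481.4 CPM. Naaa was higher there (153.9 and 195.9 against 52.3 to 90.9 CPM), and Zbtb46 was lower (14.05 and 11.9 against 15.59 to 29.77 CPM). The plasmacytoid sum was lower there, at 263.8 and 246.0 CPM against 275.5 to 312.8 CPM. T and NK cell markers (13 genes) summed to 77.8 to 116 and 58.8 to 98.8 CPM, with none at 0 in a library.

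Other genes of the pathway gave 0 calls between genotypes in lists for the locus, peptide loading, transcription factors, costimulation and class I presentation. The signs given for the lists stand beside 49.8% negative over the 13342 genes tested. At the class II locus 3 further genes were tested, and all had a negative log2 fold change, with a median of -0.77. H2-Oa, for a chain of the H2-DM inhibitor H2-DO, had 8.10, 5.23 and 12.3 CPM in WT and 4.97, 3.27 and 4.12 CPM in vcAlkbh5 libraries. Its groups did not overlap, and the log2 fold change was -1.06 ± 0.38 (SE, edgeR unadjusted p = 0.0227, adjusted p = 1.00). H2-Ob, for the partner chain, had a log2 fold change of -0.63 ± 0.32 (SE), and H2-Eb2, with 2 to 9 counts, was not tested. Of 9 genes of peptide loading and turnover 7 were positive, with a median of 0.15. The protease gene Ctsl was at 0.51 ± 0.45 (SE), a value that rested on vcAlkbh5 replicate 1 and was -0.11 without it, and Lgmn, for another protease, was at 0.26 ± 0.22. Transcription factors were even, 6 negative and 6 positive, with a median of 0.03. Irf1, an interferon-induced activator, was at -0.47 ± 0.19 (SE) and Rfxank, a subunit of the X box binding complex RFX, at -0.37 ± 0.20. Rfxank had 13.4, 13.2 and 13.1 against 10.1, 10.6 and 10.4 CPM in fed libraries, without overlap, but 8.13 CPM in WT and 10.6 CPM in vcAlkbh5 unlabelled cells, the reverse order.

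Of 6 tested costimulation genes 5 were positive, with a median of 0.33, and Cd274, for the ligand PD-L1, was the exception at -0.36 ± 0.14 (SE, edgeR unadjusted p = 0.0331, adjusted p = 1.00). Its fed libraries had 60.8, 61.9 and 64.5 CPM in WT and 50.8, 48.0 and 48.9 CPM in vcAlkbh5, without overlap. Cd80, a ligand of CD28, was at 0.46 ± 0.29. All 12 class I genes had a negative value, with a median of -0.23, beside 49.8% negative over all genes. They were led by the heavy chain gene H2-K1 at -0.46 ± 0.19 and the peptide transporter gene Tap2 at -0.46 ± 0.21 (SE). With 1 library left out H2-K1 ranged from -0.56 to -0.29, the latter without WT fed replicate 3, and Tap2 from -0.59 to -0.27. Among cell type lists, 8 of 13 tested plasmacytoid markers were negative (median -0.42, Ly6d at -0.72 ± 0.32 and Lag3 at -0.89 ± 0.43), as were 7 of 13 conventional dendritic cell markers (median -0.07, Flt3 at -0.35 ± 0.18 and Cd209a at 0.66 ± 0.35). B cell markers had 10 of 14 negative (median -0.17), monocyte and macrophage markers 1 of 15 (median 0.34) and T and NK cell markers 9 of 11 (median -0.22). With edgeR 0 members of these lists passed the threshold.

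Fed and unlabelled libraries were compared with genotype as a covariate, to see whether feeding went with other member levels. The peptide exchange genes had the largest values, and no member passed. Mean H2-DMb1 was 14.5 ± 5.26 CPM in fed WT and 16.5 ± 6.96 CPM in fed vcAlkbh5 cells (SD, n = 3). It was 9.04 and 8.41 CPM in WT and vcAlkbh5 cells without s4U, and the log2 fold change (fed over unlabelled) was 0.83 ± 0.36 (SE, edgeR unadjusted p = 0.0438, adjusted p = 0.243). Mean H2-DMa was 34.7 ± 11.7 and 31.2 ± 10.9 CPM (SD, n = 3) in fed cells and 20.65 and 21.02 CPM in cells without s4U, with a log2 fold change of 0.67 ± 0.30 (SE, edgeR unadjusted p = 0.0497, adjusted p = 0.255). In all 6 fed libraries both genes were above both unlabelled libraries, as were 14.0% of the 14988 genes tested. Without fed replicate 1 of both genotypes the values were 0.49 and 0.36 (edgeR adjusted p = 0.268 and 0.240), while H2-Ab1 came to 0.48 and Cd74 to 0.39 (edgeR adjusted p = 0.222 and 0.240). The other members lay between -0.18 for Siglech and 0.34 for H2-Ab1, with a median of 0.26 over the 8 beside 0.03 over all genes. With edgeR 4 genes of 14988 were called (0.0267% called), all higher, and with DESeq2 652 (4.35% called, 2.36% higher and 1.99% lower), 0 of them members in either. DESeq2 gave no adjusted p for Ciita and Siglech in this contrast, so it could not call them. An unadjusted p under 0.05 was reached by 19.6% of genes with edgeR. Since each fed library had RNA of a single sex and the unlabelled ones of both, feeding and the source of the cells cannot be told apart.

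In the same comparison all 12 class I genes were positive (median 0.51) and all 7 costimulation genes negative (median -0.44), beside 47.9% negative over all genes, and 0 members of either list were called by edgeR. Psmb8, for an immunoproteasome subunit, was at 0.75 ± 0.23 and Tapbp, for the loading factor tapasin, at 0.70 ± 0.19 (SE, edgeR adjusted p = 0.171 and 0.165), and both passed with DESeq2 (adjusted p = 0.0341 and 0.0263). In all, 6 genes of the lists passed with DESeq2 in this contrast. The others were the cathepsin genes Ctsd and Ctsb, higher by 0.47 and 0.53 on the log2 scale (DESeq2 adjusted p = 0.0166 and 0.0440), Creb1, for a factor that binds next to the X box, at -0.63 (DESeq2 adjusted p = 0.0488), and Nkg7, of cytotoxic cells, at 0.67 (DESeq2 adjusted p = 0.0454). Cd80 and Cd86, both ligands of CD28, were at -0.73 ± 0.26 and -0.71 ± 0.30 (SE).

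The genes nearest in profile to the mean of Cd74, H2-Aa, H2-Ab1 and H2-Eb1 over 8 libraries were Mfsd12, Pfas, Wdr4, Urgcp and Gse1, each at a root mean square difference of 0.08 on the log2 scale, where the median of 4444 compared genes was 0.59. Those nearest to Siglech were Gimap8, Il2rb, Znrf3, Iqcn and Grb10, at 0.11 to 0.16, where the median was 0.69. No gene of the fixed pathway and cell type lists was among these 10.

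The biological coefficient of variation, the relative spread between libraries beyond counting error, was between 0.198 for Cd74 and 0.353 for H2-Eb1 in the genotype fit, beside a median of 0.236 over all genes. With the replicate number as a block it was between 0.152 for H2-DMa and 0.250 for Ciita, beside a median of 0.184. H2-DMa went from 0.280 to 0.152 and H2-Eb1 from 0.353 to 0.203, so much of their spread was shared by libraries of the same number. Between same-numbered libraries the vcAlkbh5 to WT ratio for replicates 1, 2 and 3 was 0.89, 0.95 and 0.87 for H2-Aa, 0.82, 0.87 and 0.43 for H2-Eb1, and 0.47, 0.90 and 0.66 for Siglech. These were the 3 of 8 members below 1 in each pair, as were 11.2% of 13342 genes. Correlations across genes did not single out numbers 2 and 3 as pairs, although Xist and Ddx3y set number 2 apart in both genotypes. For Cd74 the ratios were 0.90, 1.10 and 0.65, and for H2-DMb1 1.23, 1.36 and 0.87.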

How the data were processed

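RNA was measured in 8 libraries. Each deposited file holds raw read counts per gene symbol for 1 library, not normalized by the authors. The submitters' processing notes name HISAT2 and STAR, cutadapt, HTSeq, Picard and DESeq2 as tools and mm10 and GRCm38 as builds, without roles, versions or strand setting. The 928 entries that name no gene, with reads in no gene at 37.6% to 52.1% of counts per library, stayed out of library sizes and tests. Of 27710 symbols, 27070 matched GENCODE M21.

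Tests used edgeR's quasi-likelihood method (edgeR 4.0.16, R 4.3.3) with TMM scaling and robust dispersions after filterByExpr (genes with few counts removed, Benjamini-Hochberg adjustment over all genes, threshold 0.05). The genotype contrast used 6 fed libraries, the s4U contrast and the interaction all 8. The standard error is the log2 fold change over the root of the F statistic, and 95% intervals use its degrees of freedom. All CPM are TMM-scaled over 8 libraries. The fits were tested on simulated data. Every pair of libraries differed beyond sampling noise (chi-square per gene at least 2.93).

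Members and lists were chosen with earlier results of these data known. The text names all members, Alkbh5, per list the genes past the threshold (up to 3) or the 2 with the smallest p as values, and the 5 genes nearest in profile (mean 2 CPM or more, log2 range 1 or more). For B cell, monocyte and T and NK cell lists the counts are given without those genes. Alternatives were RLE size factors, DESeq2 1.42.0, other filters, removal of Gm26917 and Gm42418, the replicate block, an additive fit, other lengths and scaling, and each library left out. Leaving out fed replicate 1 of both genotypes was chosen after seeing the data. Deviations of same-numbered libraries from the group means correlated across genes at 0.68, 0.29 and 0.19 for numbers 1 to 3. Fed WT 2 with fed vcAlkbh5 3, and fed WT 3 with fed vcAlkbh5 2, were both at 0.35. The correlations therefore set apart only number 1 as a pair. Number 2 also matched by sex-linked RNA. Among fed libraries only replicate 2 of WT and vcAlkbh5 had high Xist (2029 and 1896 CPM) with Ddx3y at 0. The replicate block was kept as an alternative.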

Additional observations from a re-analysis of the deposited data

How the results depend on the processing

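Over 112 alternative values per contrast, 0 members were called between genotypes (smallest adjusted p 0.939) or between fed and unlabelled libraries (smallest adjusted p 0.132, DESeq2). In the latter contrast DESeq2 gave Ciita and Siglech no adjusted p. With the replicate block edgeR called 1 gene, as without it, and it changed no call of a member. H2-Eb1 was then at -0.59 (adjusted p = 0.939). No paired analysis was possible for the s4U contrast because the unlabelled libraries carry no replicate number. Where an unlabelled library was left out of that contrast, the remaining one was assumed to vary like the fed libraries, and the interaction could not be fitted.

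The count of genes called between genotypes was 2 with DESeq2 and without the low-count filter. That of the s4U contrast was 652 with DESeq2, 37 without the filter, 0 to 2 with any single library left out, and 1 without fed replicate 1 of both genotypes. Small log2 fold changes turned sign in 16 of the 224 member values, 3 of them without fed replicate 1 of both genotypes in the s4U contrast (Ciita -0.08, H2-Aa 0.02, Siglech 0.04). With 1 library left out, the genotype value ranged for Ciita from -0.35 to 0.09, for H2-Aa from -0.40 to 0.11, for H2-Ab1 from -0.38 to 0.03, for H2-DMa from -0.48 to 0.13, for H2-Eb1 from -0.99 to -0.13, for Siglech from -1.0 to -0.22 and for H2-DMb1 from -0.21 to 0.49. That of Ctsl ranged from -0.11 to 0.95, of Dntt from -0.73 to 0.02 and of Cd79a from -0.85 to 0.01. The s4U value of Ciita ranged from -0.12 to 0.09 and that of H2-Eb1 from -0.04 to 0.41.

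With the longest transcript as length, WT fed levels became 0.811 for Ciita, 58.4 for H2-Ab1, 17.3 for H2-DMa and 5.51 CPM per kb for Siglech. The highest-to-lowest ratio over fed libraries, 3.69 for H2-Eb1 and 3.25 for Siglech, ranged from 1.85 to 3.69 and from 1.97 to 3.25 with 1 library left out. Without fed replicate 1 of both genotypes it was 2.31 for H2-Eb1, 1.27 for H2-DMa, 1.45 for H2-DMb1 and 1.97 for Siglech. Depth limits Ciita and Siglech most, with as few as 25 and 32 counts in a library.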
